A study of Mus musculus with 96 samples.

Results

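The RANKL, osteoprotegerin and CSF1 axis is the set of secreted and membrane proteins through which bone-forming cells control the formation of osteoclasts, the cells that resorb bone. Its 6 genes were taken by name from the deposited expression table, with their transcripts summed: Tnfsf11 (RANKL), Tnfrsf11b (osteoprotegerin), Tnfrsf11a (RANK), Csf1, Il34 and Csf1r. They are 6 of the 37945 genes in the table and 6 of the 15760 genes tested. The Tnfsf11 to Tnfrsf11b ratio was followed as a further quantity.

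RANKL is made by osteoblasts, osteocytes and other stromal cells and binds RANK on osteoclast precursors, which are cells of the macrophage lineage. Osteoprotegerin is a soluble decoy that binds RANKL and keeps it from RANK, so the balance of RANKL and osteoprotegerin sets how much signal the precursors receive. CSF1 and IL-34 are separate ligands of the receptor CSF1R, which macrophages and osteoclast precursors need for survival and growth, and CSF1 is a product of osteoblasts.

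The libraries came from calvarial osteoblasts of Collaborative Cross mice, a panel of recombinant inbred strains bred from several founder strains, so a strain is a fixed mixture of founder genomes and no strain carries an engineered allele or a treatment. Cells were isolated from the skull bones of pups 3 to 5 days old, grown for 48 h and then differentiated for 10 days with beta-glycerol phosphate and ascorbic acid, which bring on mineralization. Total RNA (200 ng) depleted of ribosomal RNA was sequenced in 96 samples of 42 strains, of which 1 sample was sequenced 2 times, leaving 95 libraries. There were 4 libraries in 6 strains, 3 in 2 strains, 2 in 31 strains and 1 in 3 strains. Strain tests used the 92 libraries of the 39 strains with at least 2, and relations across strains used all 42. The labels do not name the litter or culture behind a library, so it is not known that the libraries are independent, which the tests assume. A p-value here thus reflects the spread of these libraries, which may be technical. Primary calvarial cultures are mixed, and in bulk RNA fewer cells of a type and less RNA per cell cannot be told apart.

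Values are deposited TPM (abundance per transcript length, relative to the total of the library), rescaled between libraries by factors of 0.772 to 1.27 and called scaled TPM below. On this scale levels can be set beside each other between genes, but it does not record sequencing depth. All 11 osteoblast markers were measured, with a summed level of 5711 to 19710 scaled TPM over the libraries. The sum of 14 macrophage markers ran from 14.6 to 1956, so macrophage transcripts were present at very unequal levels. The sum of 6 osteoclast markers ran from 5.4 to 24.9, with the calcitonin receptor Calcr and the fusion gene Ocstamp below 0.5 in every library. The 9 lymphocyte markers summed to 0.0112 to 4.38, and 8 of them, all but Cd4, were below 0.5 in every library. The sums ran from 0.299 to 3.31 for 6 endothelial, 2.01 to 65.2 for 6 chondrocyte and 31.9 to 383 for 6 osteocyte markers. The sum of 6 adipocyte markers had a median of 5.19 and reached 168.6 in CC038 replicate 3, and Lep, which encodes leptin, was below 0.5 in every library.

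One library stood apart in the ligand itself. CC051 replicate 1 had Tnfsf11 at 86.9 scaled TPM, against 3.47 in CC051 replicate 2 and at most 12.6 in any other library. Its osteoblast markers were low: Ibsp, which encodes bone sialoprotein, was at 166 against 2219 in replicate 2, alkaline phosphatase (Alpl) at 25.2 against 228, and the osteoblast transcription factor Sp7 at 4.21, the lowest of all libraries, against 42. The same library held the highest value of all 95 for 1098 of the 15760 genes tested, where the median library did so for 121 and CC030 replicate 1 for 1102. Most results that rest on it are given with and without CC051. Agreement between libraries over all strains and the rank of the Tnfsf11 range among all genes are given with it only. So are the variances of strain means and the counts, ranges and adjusted p of the other pathway genes.

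Sequence around the transcription start was held in the RefSeq promoter table (build GRCm38.p6) for 3 of the 6 genes, Tnfsf11, Tnfrsf11a and Csf1. They are shown because no window was held for the other members. The 3 genes had different patterns in the cultures, whose relation to the windows was not tested. Tnfsf11 was far higher in CC051 replicate 1 than in any other library, Csf1 was the steadiest of the 6 and Tnfrsf11a followed macrophage markers. Each window runs 5′ to 3′ on the gene's strand from 250 bases before the start to 50 bases after it, 300 bases in all. Capitals mark matches to 5 motifs searched on both strands, and only the Tnfsf11 window holds any.
Tnfsf11, chr14:78307994-78308293, minus strand: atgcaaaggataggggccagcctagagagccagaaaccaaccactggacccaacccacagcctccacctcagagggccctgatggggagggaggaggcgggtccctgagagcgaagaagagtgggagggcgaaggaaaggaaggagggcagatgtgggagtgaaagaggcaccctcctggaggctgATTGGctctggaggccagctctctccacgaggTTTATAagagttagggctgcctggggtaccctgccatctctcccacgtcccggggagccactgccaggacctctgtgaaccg
Tnfrsf11a, chr1:105780473-105780772, plus strand: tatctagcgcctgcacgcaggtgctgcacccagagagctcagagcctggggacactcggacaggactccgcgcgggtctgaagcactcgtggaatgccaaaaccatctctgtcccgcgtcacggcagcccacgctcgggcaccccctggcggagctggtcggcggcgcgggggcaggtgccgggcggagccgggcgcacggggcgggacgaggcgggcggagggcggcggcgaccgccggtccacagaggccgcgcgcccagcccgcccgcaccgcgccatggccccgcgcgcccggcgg
Csf1, chr3:107760420-107760719, minus strand: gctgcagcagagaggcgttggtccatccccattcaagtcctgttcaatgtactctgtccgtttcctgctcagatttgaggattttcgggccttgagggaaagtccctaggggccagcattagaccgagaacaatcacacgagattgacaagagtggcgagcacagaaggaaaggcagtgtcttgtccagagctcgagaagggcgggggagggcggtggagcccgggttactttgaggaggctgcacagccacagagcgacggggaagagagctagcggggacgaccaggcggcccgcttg
In the Tnfsf11 window the TATA box letters TATAAA lie on the opposite strand, so the window reads TTTATA from position -32, and the letters CCAAT also lie on the opposite strand, read as ATTGG from position -64. Among 32851 promoters of the same length, 13.6% hold TATAAA and 37.4% hold CCAAT. The other motifs searched were GAGGAA for PU.1 (in 28.3% of promoters), TGTGGT for RUNX factors (16.8%) and TGANTCA for AP-1 (7.81%), and these letters are not in the windows shown. No 2 of the motifs overlap in the Tnfsf11 window. The share of G and C was 61.7% in the Tnfsf11 window, 76.7% in the Tnfrsf11a window and 58.7% in the Csf1 window.

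The 6 genes were expressed at very different levels and in every library. Csf1 was the most abundant, with a lowest, median and highest value of 25.4, 38.3 and 70.8 scaled TPM over the 95 libraries. Tnfrsf11b ran from 2.39 through a median of 10.9 to 44. Csf1r ran from 0.426 through 7.18 to 106. Its range was the widest of the 6. Il34 ran from 2.06 through 4.12 to 16.6. Tnfsf11 had a lowest value of 1.12, a median of 3.08 and a highest of 86.9. Tnfrsf11a was the least abundant, from 0.0577 through 0.534 to 4.93. Of the CSF1R ligands, Csf1 exceeded Il34 in 95 of 95 libraries, with a median ratio of 8.88. Tnfrsf11b exceeded Tnfsf11 in 87 of 95 libraries, with a median ratio of 2.91.

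**Figure D1:**
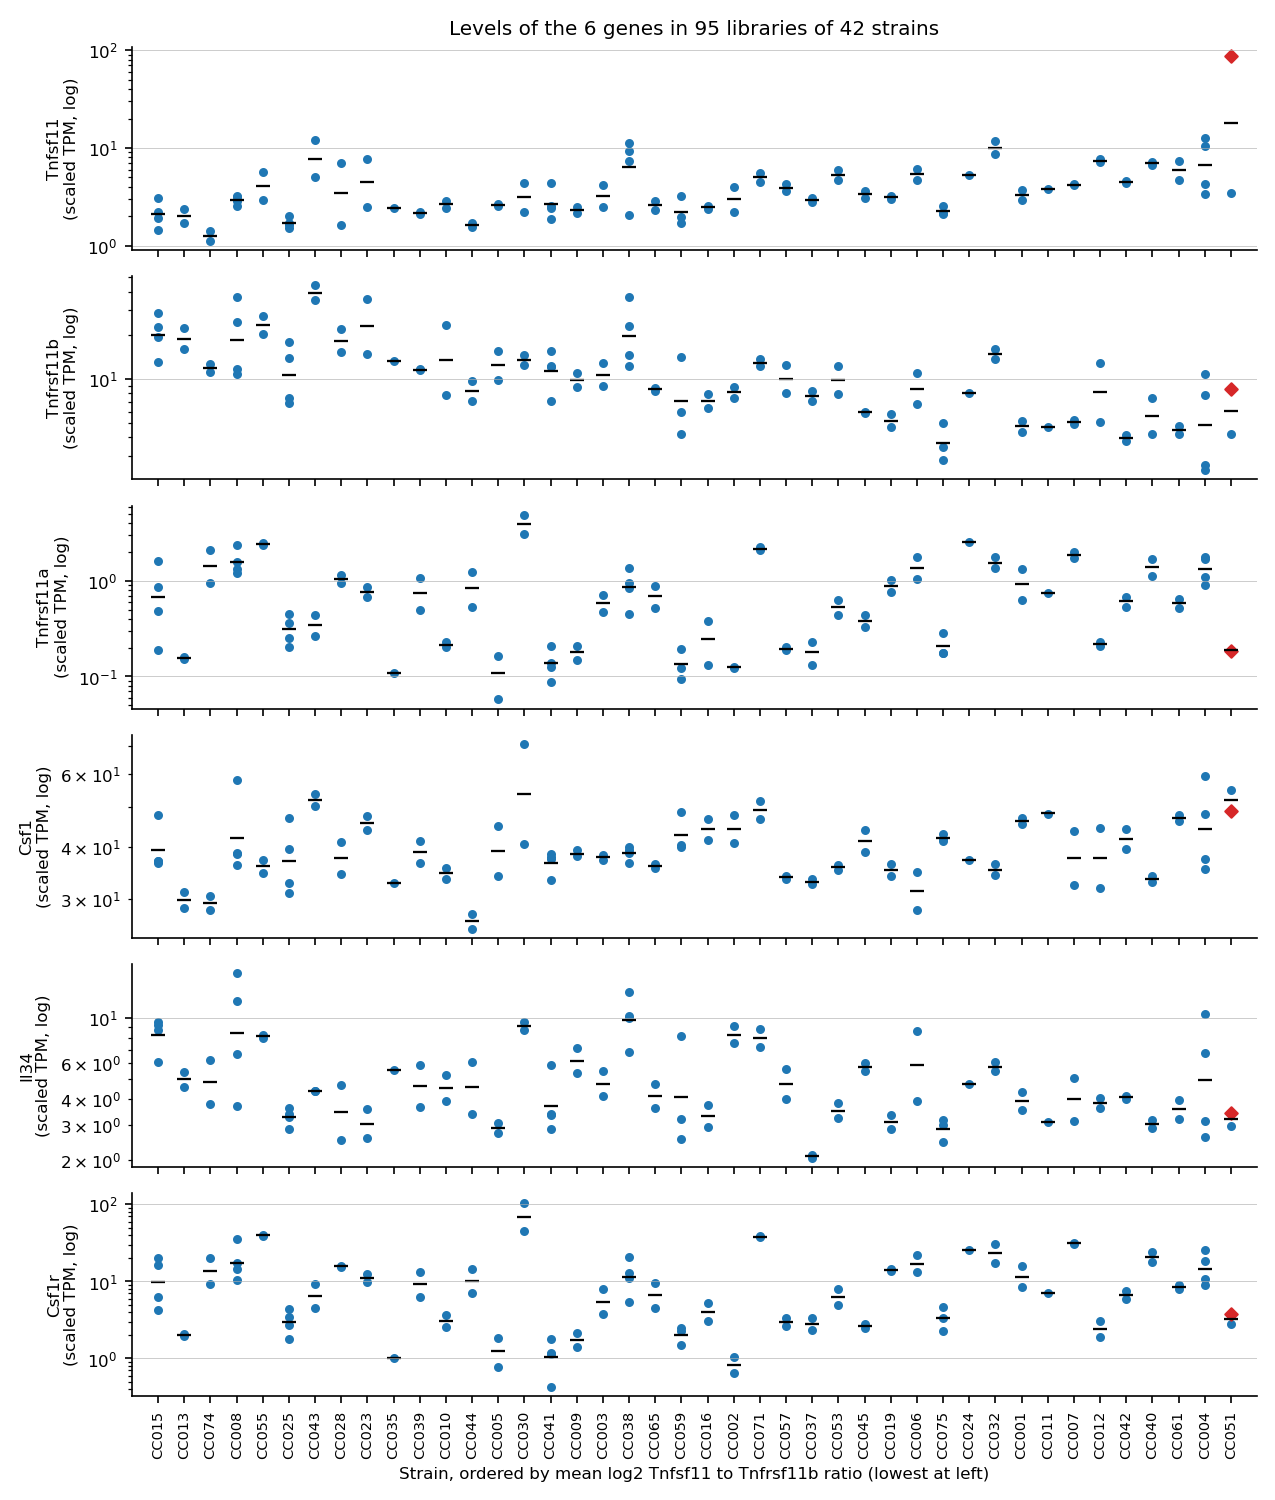
Scaled TPM (log axes) of the 6 genes, 1 point per library, with strains ordered by mean log2 Tnfsf11 to Tnfrsf11b ratio; black bars are strain means taken on the log scale and the red diamond is CC051 replicate 1. Csf1 stays between 25.4 and 70.8 in all libraries, while Csf1r runs from 0.426 to 106.

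All 6 genes differed between strains by limma's moderated F test (Benjamini-Hochberg adjustment over all genes). So did 81.5% of all genes tested, so the count of 6 is near the background. The genes differed instead in the size of the range and in how well libraries of a strain agreed. The second of these is given as the intraclass correlation, the share of the variance that lies between strains, whose median over all tested genes was 0.472 (quartiles 0.283 and 0.641). Both receptors were the most repeatable: the intraclass correlation was 0.853 for Csf1r and 0.840 for Tnfrsf11a, higher than in 96.1% and 95.3% of genes. Tnfrsf11b followed at 0.610, above 70.4% of genes. For the ligands it was 0.505 for Il34, 0.463 for Csf1 and 0.424 for Tnfsf11, near the middle of all genes.

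RANKL was the ligand with the largest range between strains and the lowest intraclass correlation. That correlation takes in CC051, whose libraries differed by log2 4.46, the largest gap of any strain for Tnfsf11. The median gap between libraries of a strain was log2 0.29 for Tnfsf11, 0.31 for Il34 and 0.13 for Csf1. By strain mean, Tnfsf11 was highest in CC051 (86.9 and 3.47), CC032 (11.8 and 8.59) and CC043 (12 and 4.98). It was lowest in CC074 (1.41 and 1.12), CC044 (1.55 and 1.69) and CC025 (2, 1.52, 1.63 and 1.72). The libraries of CC032 did not overlap those of the 3 low strains, whereas in CC051 only replicate 1 was high. These strains were picked by the same values. Strains next to each other in the order of means overlapped in 37 of 38 pairs. Between the highest and lowest strain, the difference was 3.40 on the log2(scaled TPM + 0.5) scale (adjusted p 0.000318), larger than in 95.7% of genes. Without strain CC051 the range was 2.59 (adjusted p 3.51e-06).

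Against the mean of the other strains, with adjustment over all strains and genes, 7.72% of all combinations of a gene and a strain were called higher and 7.08% lower. For Tnfsf11, 2 of 39 strains were higher and 2 lower, 4 in all. CC032 was higher by log2 1.38 ± 0.45 (SE, adjusted p 0.0272) and CC051 by 2.22 ± 0.45 (adjusted p 0.000221). CC074 fell by 1.27 ± 0.45 on the same scale (adjusted p 0.0448) and CC025 by 0.94 ± 0.32 (adjusted p 0.0382). Without CC051, 8 strains were called, and the share over all genes in that fit is not given.

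In the CC051 library with high Tnfsf11, some of the genes that induce RANKL in osteoblasts or carry the signal for it were high as well. Of 22 inducers and receptors in the list of such genes, 9 had their highest value of the 95 libraries there, and no gene of the list had its lowest, where 6.97% of all genes had their highest. These genes are named because the count singles them out, after their values were seen. Il6, a cytokine that acts through the shared receptor chain Il6st, was at 31.1 scaled TPM against 0.186 in CC051 replicate 2 and at most 2.28 elsewhere. Il11 was at 6.86 against 0.137 in replicate 2, and Lif at 14.5 against 0.877. Ptgs2, the inducible cyclooxygenase that makes prostaglandin precursors, was at 150 against 6.85. The library exceeded all others for each of these cytokines and for Ptgs2. Some receptors were also highest there. Osmr, the oncostatin M receptor, was at 82.5 against 11.3, Il6st at 148 against 44.6 and Il1r1, the interleukin-1 receptor, at 23.9 against 2.15. Tnfrsf1a, a TNF receptor, was at 45.6 against 20.6, and the prostaglandin receptor Ptger2 at 4.79 against 0.835. Ccl2, a chemokine that attracts monocytes, was at 505 against 2.17, with at most 81.7 elsewhere.

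Not every regulator of RANKL was high in that library. Pth1r, the parathyroid hormone receptor, was at 24.5 against 116 in replicate 2 and Vdr, the vitamin D receptor, at 5.99 against 7.58. Nor were the receptors of LIF and IL-11 raised, with Lifr at 30.7 against 40.6 and Il11ra1 at 61.6 against 62.6. Within the axis, the library was less unusual: Tnfrsf11b was at 8.57 against 4.2, Csf1 at 48.8 against 54.9, Il34 at 3.42 against 2.94, Csf1r at 3.74 against 2.83 and Tnfrsf11a at 0.186 against 0.191. Its macrophage markers summed to 89.9, against 93.7 in replicate 2, although single markers differed in opposite directions: Adgre1 (F4/80) was at 38.1 against 7.53 and the complement gene C1qa at 5.66 against 18.3. Of 27 tested genes of RANK and CSF1R signalling, 9 also had their highest value there. The part of culture state or RNA quality in this library was not tested, and there is no second library of CC051 like it.

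Osteoprotegerin varied about as widely as RANKL, with a higher intraclass correlation (0.610 against 0.424). Libraries of a strain did not agree more closely in general. The median gap between the lowest and highest library of a strain was log2 0.46 for Tnfrsf11b and 0.29 for Tnfsf11. The largest gap was 1.98 for Tnfrsf11b, in CC004, and 4.46 for Tnfsf11, in CC051. Tnfrsf11b was highest in CC043 (35 and 44), CC055 (20.6 and 27) and CC023 (35.7 and 15). It was lowest in CC075 (5.03, 2.82 and 3.45), CC042 (4.16 and 3.77) and CC061 (4.19 and 4.77). All libraries of the 3 high strains lay above all those of the 3 low strains, but the strains were picked by these same values. Strains next to each other in the order of means overlapped in 36 of 38 pairs. The range was log2 3.25 (adjusted p 1.7e-07). In 6 strains Tnfrsf11b was called higher than in the others and in 4 lower. CC043 was higher by 1.98 ± 0.38 (SE, adjusted p 0.000109), and CC075 fell by 1.36 ± 0.31 (adjusted p 0.00131). The higher strains also included CC055, CC023, CC015, CC038 and CC008. CC042, CC004 and CC061 were the other lower strains.

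The RANKL to osteoprotegerin ratio, as Tnfsf11 over Tnfrsf11b in scaled TPM, had a lowest, median and highest value of 0.0557, 0.343 and 10.1 over the libraries. It was above 1 in 8 libraries of 6 strains. They were CC051 replicate 1 (10.1), CC004 replicates 3 and 4 (5.26 and 4.07), CC061 replicate 1 (1.76), CC040 replicate 2 (1.71), CC012 replicate 2 (1.41) and both libraries of CC042 (1.05 and 1.22). CC042 was the one strain with all its libraries above 1, although its Tnfsf11 (4.37 and 4.6) was not called different from the other strains. Its Tnfrsf11b was lower, with a contrast of log2 -1.26 ± 0.38 (SE, adjusted p 0.0173). The ratio was lowest in CC015 (0.108, 0.0634, 0.0973 and 0.166), CC013 (0.111 ± 0.0504, SD, n = 2) and CC074 (0.125 and 0.0886).

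The ratio differed between strains (permutation test over 100000 permutations of the strain labels, one-sided in F, p 6.00e-05, F = 3.52), with an intraclass correlation of 0.517. The range between strain means was log2 4.52, or 22.9-fold with 0.5 added to both genes, and it was 3.41 without CC051 (permutation p 4.00e-05). Neither gene alone accounted for the spread. Over the 42 strain means, the variance of log2 Tnfsf11 was 0.462, that of Tnfrsf11b 0.569 and their covariance -0.030, giving 1.092 for the log2 ratio. Tnfsf11 and Tnfrsf11b were not detectably related across strains (r = -0.06, rho = -0.12, permutation test, adjusted p 0.762 and 0.708).

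**Figure D2:**
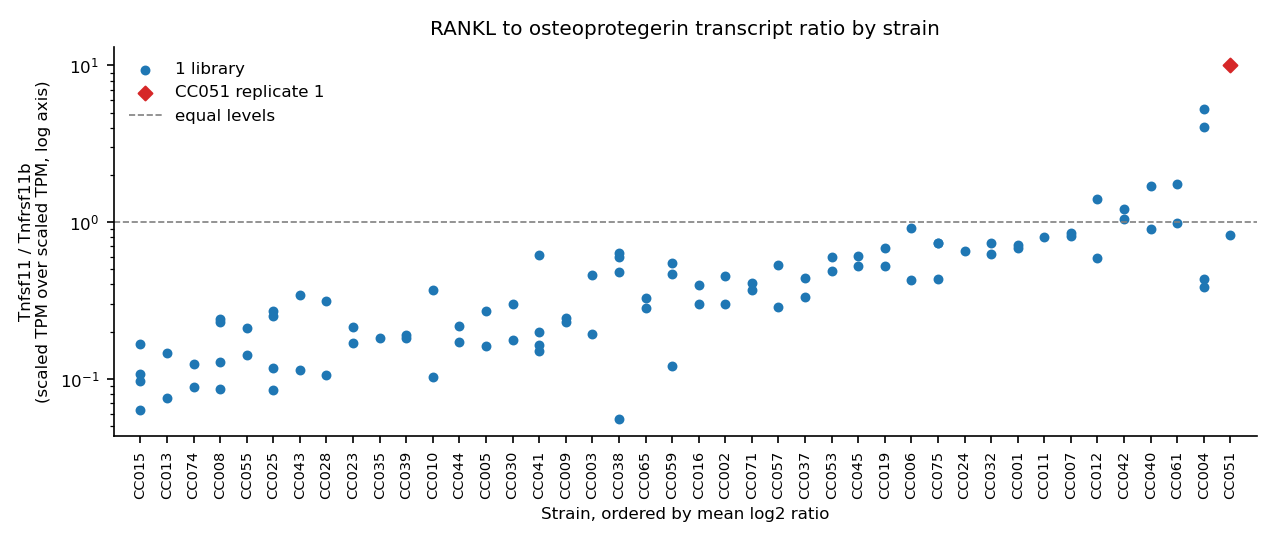
Tnfsf11 over Tnfrsf11b (scaled TPM, log axis), 1 point per library, strains ordered by mean log2 ratio; the dashed line marks equal levels and the red diamond is CC051 replicate 1. 8 of 95 libraries lie above 1, among them both of CC042 and 2 of the 4 of CC004.

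The ratio also differed between libraries of a strain. The SD of its log2 value was 0.87 within strains and 1.04 between the 42 strain means. In CC004, Tnfsf11 was at 3.37 and 4.23 in replicates 1 and 2 and at 12.6 and 10.5 in replicates 3 and 4. Tnfrsf11b went the other way, at 7.81 and 10.9 against 2.39 and 2.58. The ratio was 0.432 and 0.387 against 5.26 and 4.07, so the pairs did not overlap. Other genes of the axis split the same way: Il34 was at 6.72 and 10.5 against 2.61 and 3.11, and Csf1r at 18.5 and 25.8 against 9.06 and 10.8, while Csf1 was lower in the first pair, at 35.4 and 37.4 against 59.2 and 48. Adipocyte markers summed to 6.8 and 91.2 in the first pair and to 7.8 and 6.7 in the second, so they set replicate 2 apart and not the pairs. Every sample title ends in a number of unstated meaning. The numbers of the first pair follow each other, as do those of the second, but the pairs lie more than 20 apart. CC004 was singled out after its values were seen.

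Title numbers were also used to divide all strains with at least 2 libraries, and CC004 is among those with distant numbers. In 19 strains the libraries had numbers within 5 of each other, and in 20 strains numbers 20 or more apart, with 2 libraries per strain entering for the latter. Strains with close numbers had the higher intraclass correlation for all 6 genes and the ratio. It was 0.795 against 0.224 for Tnfsf11, 0.915 against 0.306 for Tnfrsf11b, 0.806 against 0.211 for Csf1 and 0.784 against 0.333 for Il34. The receptors fell least, from 0.910 to 0.791 for Tnfrsf11a and from 0.918 to 0.813 for Csf1r. The difference between both sets of strains was not tested, and the sets hold different strains.

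In the 20 strains with distant numbers alone, Tnfrsf11a, Csf1r and the ratio (permutation p 0.037) passed the test. The other 4 genes did not: the adjusted p by limma was 0.175 for Tnfsf11, 0.1 for Tnfrsf11b, 0.211 for Csf1 and 0.0833 for Il34. Their ranges there were log2 2.98, 2.17, 0.76 and 1.52. This fit had 40 libraries in place of 92, and 6512 genes passed it in place of 12846. In the 19 strains with close numbers, with 39 libraries, 13318 genes passed, all 6 genes among them (adjusted p 5.45e-06 or lower), and so did the ratio (permutation p 1e-05, the smallest possible).

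CC051 is one of the strains with distant numbers. Without it the intraclass correlation of Tnfsf11 over the other 19 of these strains was 0.455 and that of the ratio 0.375 (0.406 with it), against 0.795 and 0.831 for close numbers. Tnfsf11 then passed the test, with a range of log2 2.02 (adjusted p 0.0246). The ratio no longer did (range 3.16, permutation p 0.0502), and Tnfrsf11b, Csf1 and Il34 again did not (adjusted p 0.102, 0.303 and 0.0953). In this subset the calls of Tnfsf11 and the ratio thus turned on 1 strain.

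Osteoprotegerin was high in one run of title numbers, a run being libraries whose numbers follow each other by steps under 6. The 9 libraries of this run, of 7 strains, had a median Tnfrsf11b of 28.4 scaled TPM, and 8.96 was the median of the other 86. The run was picked out after its values were seen and gets no test. In CC008, Tnfrsf11b was at 24.7 and 36.9 inside the run and at 11.8 and 10.9 outside it. In CC023 the values were 35.7 inside and 15 outside, in CC028 they were 22.3 and 15.3, and in CC015 they were 28.4 inside and 22.8, 19.6 and 13.2 outside. CC030 (12.5 inside, 14.6 outside) and CC001 (4.35 inside, 5.19 outside) did not show it. Both libraries of CC043, the strain with the most Tnfrsf11b, carry numbers of this run, so the strain and the run cannot be told apart there. Without the run the range of Tnfrsf11b over the other strains was log2 2.53 (adjusted p 2.67e-05). Csf1 was higher in the run too, with a median of 47.8 against 37.3 in the other libraries. Its mean was higher inside the run in all 6 strains with libraries on both sides, by 1.03-fold in CC001 to 1.74-fold in CC030. Numbers 57 to 79 formed a run of low Tnfrsf11b, with a median of 5.05 over 12 libraries of 9 strains. Its median ratio was 0.818. Tnfrsf11b was lower inside it than outside in CC004, CC006, CC010, CC040, CC051 and CC059. CC001 (5.19 inside, 4.35 outside) and CC038 (23.2 inside, 12.3 to 36.6 outside) did not show it. CC004 replicates 3 and 4 and CC040 replicate 2, with ratios above 1, belong to it. This run was also picked out after its values were seen, and was not tested.

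**Figure D3:**
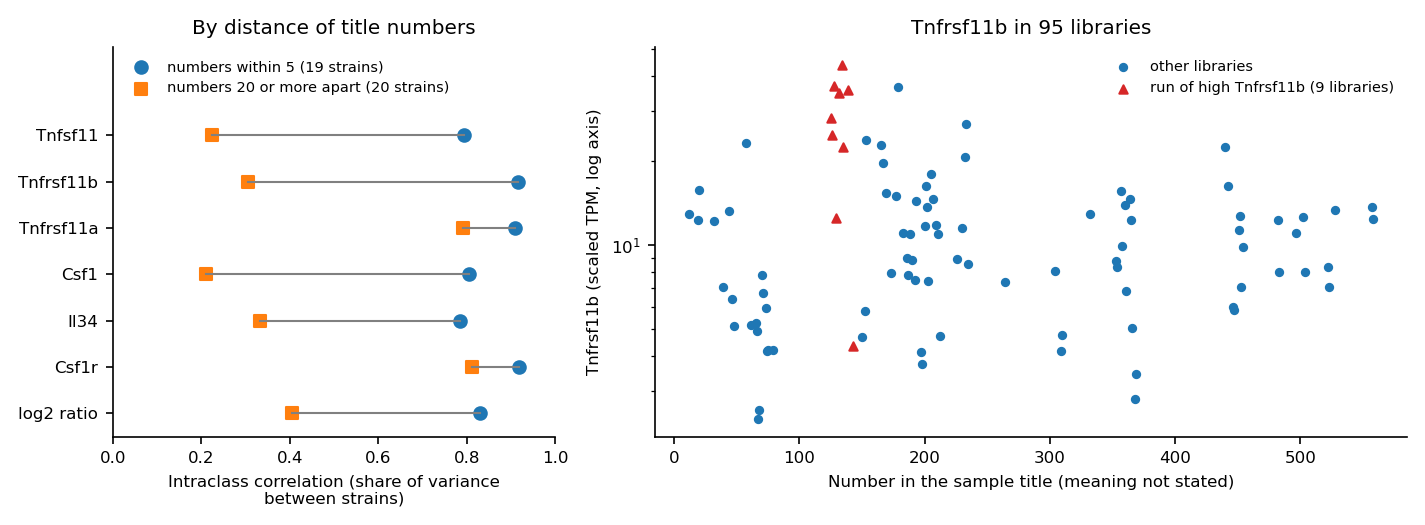
Left, intraclass correlation (the share of variance between strains) of each gene and the log2 ratio in 19 strains with close numbers (blue circles) and 20 with numbers far apart (orange squares). Right, Tnfrsf11b (scaled TPM, log axis) against the title number in 95 libraries, with the 9 libraries of the run as red triangles, whose median is 28.4.

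Both receptors of the axis are genes of osteoclast precursors and macrophages, and they moved with macrophage markers. Csf1r was highest in CC030 (106 and 45.1), CC055 (39.3 and 40.2) and CC071 (38.1 and 38.4). It was lowest in CC002 (1.04 and 0.654), CC041 (1.18, 1.14, 1.8 and 0.426) and CC005 (0.775 and 1.86). No library of the low strains came near the high ones, and the range of log2 5.71 exceeded that of 99.1% of genes (adjusted p 3.87e-17). The strains were picked by these same values, and strains next to each other in order overlapped in 33 of 38 pairs. Tnfrsf11a was highest in CC030 (4.93 and 3.08), CC055 (2.38 and 2.48) and CC071 (2.13 and 2.24) among strains with at least 2 libraries. It was lowest in CC005 (0.0577 and 0.162), CC002 (0.123 and 0.126) and CC059 (0.137 ± 0.0515, SD, n = 3). Its range was log2 2.86 (adjusted p 5.02e-16). In all, 10 strains were called higher and 13 lower for Csf1r, and 10 higher and 14 lower for Tnfrsf11a.

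Across the 42 strains Tnfrsf11a and Csf1r were correlated at r = 0.97 (rho = 0.98, adjusted permutation p 0.000143, and r = 0.97 without CC030 and CC024, the strains farthest from the median). Relations across strains were tested as a family of 43, by two-sided permutation tests with Benjamini-Hochberg adjustment. A macrophage score, the mean z-score of 14 markers that include neither receptor, was correlated with Csf1r at r = 0.98 (rho = 0.99) and with Tnfrsf11a at r = 0.97 (rho = 0.97), each with an adjusted p of 0.000143. The raw p of 1e-05 was the smallest that the permutations can give. Without CC030 and CC041 both values of r were the same to the second decimal. For strains whose title numbers lay far apart r was 0.99 and 0.96, and 0.98 and 0.97 where they were close. Within strains, the deviations of the 92 libraries from their strain means followed the score as well, with r = 0.92 for Csf1r and 0.89 for Tnfrsf11a.

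With the macrophage score as a covariate in the fit, the range between strains was log2 1.36 for Csf1r in place of 5.71 and 0.91 for Tnfrsf11a in place of 2.86. Both genes still passed the test (adjusted p 0.000205 and 3.77e-06), and 7 strains were called for each. The share of such calls over all genes in this fit is not given. The same covariate left the range of Tnfsf11 at 3.40 and that of Tnfrsf11b at 3.25. For Csf1 it was 0.98 in place of 1.01 and for Il34 2.13 in place of 1.99. Calls against the other strains went from 4 to 1 for Tnfsf11 and from 5 to 3 for Il34 with this covariate. The Tnfsf11 range took in CC051, and the covariate was not fitted without that strain. Across strains Tnfsf11 had r = 0.27 with the macrophage score (adjusted permutation p 0.188), and 0.38 without CC051 (adjusted p 0.042). With Csf1r both values of r and p were the same. Over strains with distant and close title numbers r with the score was 0.13 and 0.34 (adjusted p 0.708 and 0.353).

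**Figure D4:**
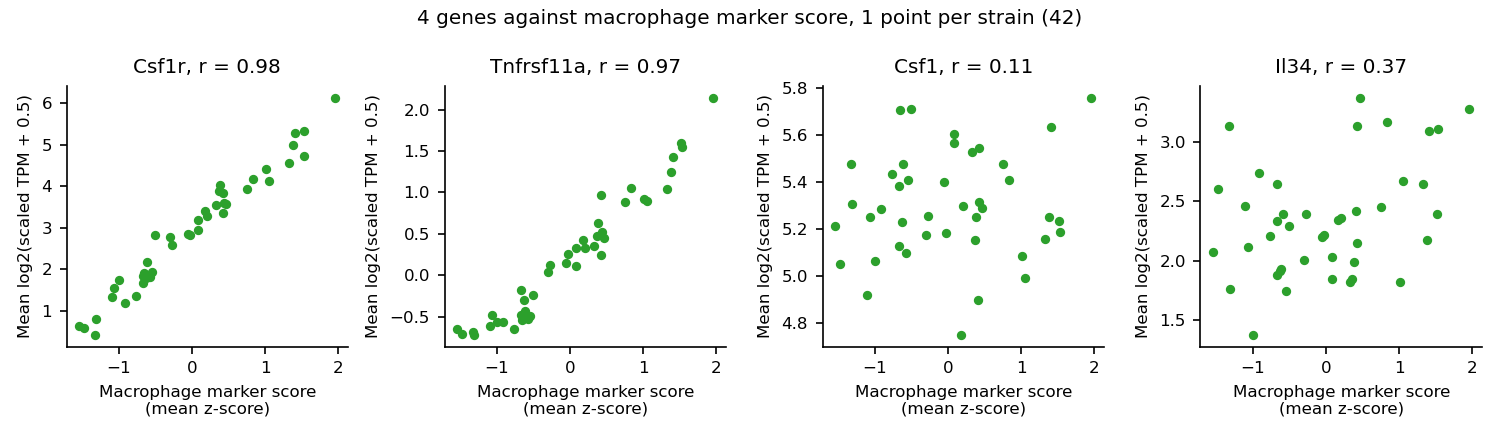
Strain means of log2(scaled TPM + 0.5) of Csf1r, Tnfrsf11a, Csf1 and Il34 against the macrophage marker score (mean z-score), 1 point per strain. The receptors lie along a line (r = 0.98 and 0.97), and Csf1 (r = 0.11) does not.

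Csf1 was the steadiest gene of the axis. It was highest in CC030 (70.8 and 40.6), CC043 (53.6 and 50.1) and CC051 (48.8 and 54.9), and lowest in CC044 (25.4 and 27.5), CC074 (30.4 and 28.2) and CC013 (29.8 ± 1.99, SD, n = 2). The range of log2 1.01, or 2.01-fold on that scale, was larger than in 49% of genes (adjusted p 0.000123). Of 39 strains 3 were called higher and 3 lower, where 7.72% and 7.08% of all combinations of a gene and a strain were. CC044 fell by 0.56 ± 0.13 (SE, adjusted p 0.00168), and CC030 was higher by 0.47 ± 0.13 (adjusted p 0.00978) although its 2 libraries differed. Replicate 1 of CC030, the sample sequenced 2 times, had 96.8 and 78.6 deposited TPM in its runs, so its high value was present in both. That library and both of CC043 belong to the run of title numbers with high Tnfrsf11b, so for Csf1 in CC043 the strain and the run cannot be told apart. Without the run the range of Csf1 was log2 0.96 (adjusted p 4.69e-05).

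Csf1 was not detectably related to its receptor (r = 0.11, rho = 0.07, adjusted permutation p 0.675 and 0.786) or to the macrophage score (r = 0.11, adjusted p 0.675). It was correlated with Tnfsf11 at r = 0.38 (adjusted p 0.0457), but rho was 0.27 (adjusted p 0.183) and r was 0.29 without CC051 (adjusted p 0.126). Title numbers far apart and close gave r of 0.11 and 0.59, with adjusted p of 0.714 and 0.056.

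The Csf1 signal was divided over 7 annotated transcripts. The longest coding transcript took 61.5% ± 4.9 of the gene's TPM (SD over 42 strains), the one with a shortened coding part 20.9% ± 4.5 and the one with a short end 13.1% ± 2.0, and the other 4 at most 1.8% each. In the GENCODE models the first and last of these have the same coding length of 1656 bases (552 codons) and differ in the number of bases after it, 2114 against 262. The second has a coding length of 771 bases (257 codons) with the same 2114 bases after it. Alternative splicing of Csf1 is known to give secreted and membrane-bound forms of the protein. The share of the shortened coding form was highest in CC061 (30.1%) and lowest in CC030 (11.3%), with an intraclass correlation of 0.575. The longest form was lowest in CC061 (47.5%) and highest in CC071 (70.2%). These shares are estimates that divide reads shared by the transcripts.

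Il34, the second CSF1R ligand, had its own pattern. It was highest in CC038 (10.2, 9.97, 13.5 and 6.8), CC030 (8.74 and 9.6) and CC008 (6.68, 3.7, 16.6 and 12.1). It was lowest in CC037 (2.13 and 2.06), CC075 (3.16, 2.47 and 2.98) and CC005 (2.74 and 3.06). The libraries of CC038 and CC008 lay above those of the 3 low strains, but CC008 ranged so widely that its lowest library was near them. The strains were picked by these same values, and strains next to each other in order overlapped in 35 of 38 pairs. The range was log2 1.99 (adjusted p 2.13e-05). 4 strains were called higher and 1, CC037, lower. CC038 was higher by 1.05 ± 0.21 (SE, adjusted p 0.000263), and CC037 fell by 1.00 ± 0.30 (adjusted p 0.0154). Adipocyte markers were high in part of CC038, with sums of 7.7, 104.8, 168.6 and 14.6 in replicates 1 to 4 and Fabp4, a fatty acid carrier, at 4.24, 84.4, 142 and 10.2. Il34 was at 10.2 in the replicate with the lowest sum and 13.5 in that with the highest; their part in its level was not tested.

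Il34 and Csf1 were not detectably related across strains (r = 0.07, rho = -0.01, adjusted permutation p 0.726 and 0.965). Il34 was higher where osteoprotegerin was higher (r = 0.44, rho = 0.45, adjusted p 0.0166 and 0.0127, and r = 0.47 without CC043 and CC075). That relation had r of 0.40 over the 20 strains with numbers far apart and 0.41 over the 19 with close numbers, with adjusted p of 0.259 and 0.291. Within strains, deviations of both genes from their strain means had r = 0.15. With Tnfrsf11a, Il34 had r = 0.41 (adjusted p 0.0312, rho = 0.30, adjusted p 0.142), and r was 0.33 without CC030 and CC024. With the macrophage score Il34 had r = 0.37 (adjusted p 0.0507) and with Csf1r r = 0.31 (adjusted p 0.111), and both passed, at 0.44 and 0.38, with the deposited TPM not rescaled (adjusted p 0.0159 and 0.0408). Of the Il34 signal 73.2% ± 7.0 (SD over 42 strains) fell on 1 of its 5 annotated transcripts. On the opposite strand Il34 overlaps Gm15895 and Gm15894, at 0.0401 and 0.0169 deposited TPM on average, and Csf1r overlaps Hmgxb3, at 5.67. No source used here says whether the counting took account of strand.

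Osteoprotegerin and Il34 were lower in strains with more osteoblast marker transcripts. With the score of 11 osteoblast markers, r was -0.51 for Tnfrsf11b (rho = -0.67, adjusted permutation p 0.00399 and 0.000107) and -0.57 for Il34 (rho = -0.55, adjusted p 0.000967 and 0.00163). Without CC071 and CC030, the strains of lowest score, they were -0.57 and -0.45. Over the strains with numbers far apart r was -0.30 (adjusted p 0.517) and -0.51 (adjusted p 0.0842), and over those with close numbers -0.64 (adjusted p 0.0255) and -0.68 (adjusted p 0.0109). Tnfsf11 had r = -0.10 and Csf1 r = -0.17 (adjusted p 0.675 and 0.475). For deviations within strains, r with this score was -0.27 for Tnfrsf11b, -0.39 for Il34, -0.44 for Tnfsf11 and 0.14 for Csf1. These values within strains were not tested.

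The ratio had r = 0.30 with the osteoblast score (adjusted p 0.119, rho = 0.49, adjusted p 0.00823). Without CC051, whose replicate 1 had both a high ratio and low osteoblast markers, r was 0.46 (adjusted p 0.0092). With the osteocyte score the ratio had r = 0.36 (adjusted p 0.0556), and 0.50 without CC051 (adjusted p 0.00511). Over the strains with numbers far apart r was 0.07 for the osteoblast and 0.27 for the osteocyte score (adjusted p 0.795 and 0.554), and with close numbers 0.50 and 0.53 (adjusted p 0.132 and 0.109). Both receptors also had negative r with the osteoblast score (-0.42 for Tnfrsf11a and -0.38 for Csf1r, adjusted p 0.0266 and 0.0458), which rested on CC071 and CC030: without them r was -0.17 and -0.13. Within strains, deviations of the ratio had r = -0.15 with the osteoblast score and -0.15 with the osteocyte score. That sign is the reverse of the one across strains. Within strains Tnfrsf11a and Csf1r had r of -0.35 and -0.39 with the osteoblast score.

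The ratio was not detectably related to the osteoclast marker score. With this score of 6 markers, r was 0.18 for the ratio (rho = 0.16, adjusted permutation p 0.423 and 0.543) and 0.25 for Tnfsf11 (adjusted p 0.22). The score gives Calcr, Ocstamp and Dcstamp the same weight as Acp5, Atp6v0d2 and Mmp9. Yet Calcr, Ocstamp and Dcstamp had mean levels of 0.00117, 0.0781 and 0.0529 scaled TPM. Relations with Acp5, Atp6v0d2 and Mmp9 alone were not tested. The receptors were related to the score of 6 markers, at r = 0.51 for Tnfrsf11a and 0.50 for Csf1r (adjusted p 0.00399 each), and at 0.39 and 0.38 without CC030 and CC007. With numbers far apart r was 0.64 and 0.70 (adjusted p 0.0193 and 0.00817), and with close numbers 0.40 and 0.37 (adjusted p 0.291 and 0.295). For deviations within strains r was 0.23 and 0.26. Macrophage and osteoclast markers share a lineage, and their parts in these relations were not tested.

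**Figure D5:**
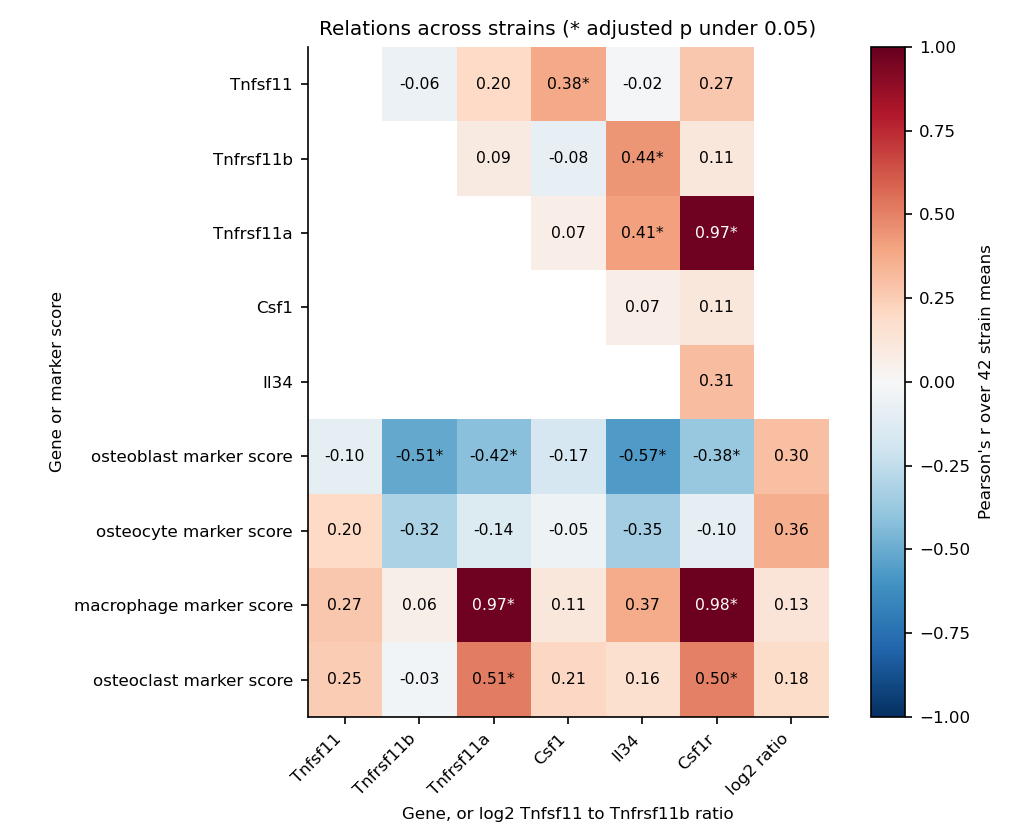
Pearson's r over 42 strain means between the 6 genes (upper rows) and between genes or the log2 ratio and 4 marker scores (lower rows); stars mark an adjusted permutation p under 0.05. The darkest cells join Tnfrsf11a, Csf1r and the macrophage score (0.97 to 0.98), while Tnfsf11 with Tnfrsf11b is at -0.06.

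The genes whose strain means followed each member most closely were found among 11184 genes (11185 for Tnfrsf11a and the ratio) with a mean of at least 1 scaled TPM, and their r is a description. Csf1r was followed by Ptpn6, Cyth4, Fermt3 and Spi1, all at r = 0.99. Spi1 encodes PU.1, a transcription factor of myeloid cells. Tnfrsf11a was followed by Was, Dock2, Arhgap30, Tnfaip8l2 and Lrrc25 (r = 0.98 to 0.99). Was and Dock2 are actin regulators of blood cells.

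For the ligands the nearest genes were of other kinds. Tnfsf11 was nearest to Tnfrsf9 (4-1BB, a TNF receptor family member, r = 0.69), Adipor2, Clmp, Ing1 and Ptgfr, the prostaglandin F receptor (r = 0.64), and without CC051 these 5 had r of 0.53 to 0.62. Il34 was nearest to Col8a1, a collagen (r = 0.89), Prss23, Vegfd, Susd2 and Svep1. Csf1 was nearest to Usp7, a deubiquitinase (r = 0.78), Msl2, Prrc2b, Ttc28 and Ammecr1l. Tnfrsf11b was nearest to S100a10 (r = 0.82), Ripk3, Apcdd1, Oaf and Plat, the tissue plasminogen activator (r = 0.81). The log2 ratio was nearest to Kdm7a, a histone demethylase (r = 0.76), the matrix proteoglycan Bgn (0.73), Vdr (0.72), Ccnl2 and Sema6d. Vdr, whose ligand is a known inducer of RANKL, had r = 0.75 with the ratio without CC051.

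The other genes of the pathway mostly differed between strains as well, as did 81.5% of all genes. Of the proteins that bind, cleave or hold the members, 6 of 7 tested passed, with a median range of log2 1.53 against 1.024 over all genes. Ptprz1, a receptor phosphatase to which IL-34 can bind, was at 69.4 ± 5.75 scaled TPM in CC012 and 1.86 ± 0.347 in CC071 (SD, n = 2 each). The syndecans Sdc1, to which IL-34 also binds, and Sdc4 had their highest mean log2 level in CC043 and their lowest in CC044; Sdc1 was at 112 ± 35.9 and 21.5 ± 2.04 there and Sdc4 ranged over log2 1.60. The highest single library for both was CC051 replicate 1, with Sdc1 at 199 and Sdc4 at 259, against 40.6 and 60.8 in replicate 2. Mmp14, a membrane protease that can shed RANKL, was at 318 ± 38.9 in its highest strain, CC051, and did not pass (adjusted p 0.0981).

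Of the genes of RANK and CSF1R signalling 25 of 27 tested passed, with a median range of log2 1.11, and Traf3 and Mapk14 did not. Tyrobp, the adaptor DAP12, which is also one of the macrophage markers, had 268 ± 65.1 scaled TPM in CC030 against 4.59 ± 2.2 in CC005 (SD, n = 2 for both). Its partner Trem2 was at 97.7 ± 18.8 in CC030 and 1.72 ± 0.469 in CC002. They had r of 0.98 and 0.95 with the macrophage score.

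All 9 tested osteoclast effectors passed. Ctsk, the collagen-cleaving protease cathepsin K, was the most abundant, at 374 ± 10.2 in CC038 (n = 4) and 74.4 ± 5.79 in CC075 (n = 3). Its r with the macrophage score was 0.26. Atp6v0d2, a subunit of the proton pump, was at 11.6 ± 2.38 in CC030 (n = 2) and 0.443 ± 0.18 in CC038 (n = 4). Mmp9, a gelatinase, was at 7.14 ± 2.32 in CC038 (n = 4) and 0.192 ± 0.0246 in CC013 (n = 2). Tcirg1, another proton pump subunit, was at 38.6 ± 2.73 in CC030 and 11.9 ± 2.22 in CC002 (n = 2 each). CC038 thus held the most Ctsk and Mmp9 and the least Atp6v0d2 of the tested strains. Ctsk was at 378, 360, 375 and 384 in its replicates 1 to 4, whose adipocyte marker sums ran from 7.7 to 168.6.

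All 22 inducers and receptors passed, with a median range of log2 1.91. Il6 and Ptgs2 had the widest ranges, through CC051 (15.6 ± 21.9 and 78.4 ± 101, SD, n = 2), whose SD exceeded its mean. Ctnnb1, the beta-catenin gene, was at 345 ± 4.79 in CC019 and 178 ± 5.62 in CC071, while Pth1r had 151 ± 54.7 in CC016 against 32.7 ± 4.14 in CC071 (n = 2 for all). Of 11 further signals from osteoblasts to osteoclasts 10 passed, and Tgfb1 did not. Cxcl12, a chemokine for osteoclast precursors, was at 81.3 ± 40.9 in CC038 and 7.7 ± 2.32 in CC025 (n = 4 each). The CC038 libraries, at 33.6, 101, 127 and 64.1, were in the same order as their adipocyte marker sums, whose part was not tested. Ccl2 had 57.8 ± 33.7 in CC030 against 0.807 ± 0.0097 in CC005 (n = 2 for both), with r = 0.79 to the macrophage score. CC030 was the highest strain by mean log2 level, although CC051 replicate 1 was higher.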

How the data were processed

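The deposited table holds TPM (transcript abundance relative to the library's total) for 94545 transcripts in 96 samples, as the authors estimated it; each column sums to 1000000. It was treated as TPM, so no count test was run. The submitters' processing notes name Bowtie and mm9; no source used here names the quantifier. TPM records no depth, so no counting error can be given. Transcripts were matched by identifier to GENCODE M21 (91225 matched, a median of 98.2% of TPM) and summed by gene. Both runs of the sample sequenced 2 times were averaged. Libraries were rescaled by a trimmed mean of log ratios (30% trimmed by ratio and 5% by level at each end), and 0.5 was added before taking log2. Genes reaching 0.5 TPM in at least 2 libraries were fitted with limma 3.58.1 in R 4.3.3 (moderated F, Benjamini-Hochberg adjustment, threshold 0.05, residual df 53). The ratio and relations were tested with 100000 permutations (NumPy 2.4.6, SciPy 1.17.1). Scripts were tested on simulated data. Promoter sequences are RefSeq's (GRCm38.p6), so their coordinates are not those of the deposited build.

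The 6 genes and all lists were chosen with earlier results of these data known. Named by rule were the 6 genes, the 5 genes most like each of them, the 2 genes of each pathway list with the widest range and the 2 with the highest level, and the 3 highest and 3 lowest strains by mean log2 level; 1 gene that this rule names is not reported here. Alternatives were other pseudocounts, scalings and filters, single runs, marker scores as covariates, subsets by title number and leaving out libraries or strains. Leaving out CC051, leaving out the run of title numbers with high Tnfrsf11b, all 18 runs of title numbers as a random block, strains with distant title numbers without CC051, and relations without the 2 strains of highest macrophage score were chosen after seeing the data.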

Additional observations from a re-analysis of the deposited data

Results flagged for a closer look

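In the 6 strains with 4 libraries, a library counted as far from the others when its gap to the nearest one, divided by the range of the 4, exceeded Dixon's 95% critical value of 0.829. Gap and range were taken on log2(scaled TPM + 0.5) or on the log2 ratio, while the values printed below are not logged. Chance alone marks about 1 in 20 groups, and 3 of 42 were marked (6 genes and the ratio in 6 strains). Csf1 in CC008 replicate 1 was at 58.1 scaled TPM, with the other 3 libraries at 38.5, 38.6 and 36.2. Csf1 in CC015 replicate 1 was at 47.8, with the others between 36.5 and 36.9. The Tnfsf11 to Tnfrsf11b ratio in CC038 replicate 1 was 0.0557, the lowest of the 95 libraries, with the others at 0.635, 0.601 and 0.478. In that library Tnfsf11 was at 2.04 (others 9.26, 7.39 and 11.1) and Tnfrsf11b at 36.6 (others 14.6, 12.3 and 23.2). Both Csf1 libraries belong to the run of title numbers with high Tnfrsf11b, and the library of CC038 does not.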

How the results depend on the processing

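In the 20 strains with title numbers 20 or more apart, 6512 genes passed the strain test in place of 12846, and Tnfsf11 (range 2.98, adjusted p 0.175), Tnfrsf11b (2.17, 0.1), Csf1 (0.76, 0.211) and Il34 (1.52, 0.0833) were no longer called by limma. Without CC051 in that subset 7352 genes passed, Tnfsf11 was called (2.02, 0.0246), and Tnfrsf11b (2.17, 0.102), Csf1 (0.76, 0.303), Il34 (1.52, 0.0953) and the ratio (3.16, permutation p 0.0502) were not. In the 19 strains with close numbers, of 39 libraries, 13318 genes passed and all 6 genes and the ratio were called. The cause was not tested. With all 18 runs of title numbers as a random block (consensus correlation 0.357) 12967 genes passed and all 6 genes kept their call. The other 100 of 108 values of the strain tests under other settings kept their call, as did all 644 without 1 library each. Without CC051 replicate 1 the range of Tnfsf11 was 2.59 and that of the ratio 3.41, and without replicate 2 they were 5.63 and 6.27. Of 43 relations, 12 passed over 42 strains, and 5 passed in strains with distant and 5 in those with close title numbers, which hold fewer strains. Those of Csf1r, Tnfrsf11a and the macrophage score with each other kept their call in every setting run. Those of Csf1 with Tnfsf11 and of Csf1r with the osteoblast score lost it in many of the settings that leave out 1 strain. Among 430 values of the relations under other settings 27 lost and 15 gained the call, and none changed sign past the threshold. No paired analysis was possible because replicate numbers follow accession order and pair no samples across strains. TPM without depth limits what can be said of Tnfrsf11a, whose lowest libraries were at 0.0577 and 0.0879 scaled TPM.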
